A study of Homo sapiens with 16 samples.

Results

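The mitochondrial ribosomal proteins are the nuclear-encoded proteins of the mitochondrial ribosome, and their transcripts were followed here in 2 multiple myeloma cell lines treated with inhibitors of histone methyltransferases. A gene was taken as a member when its symbol on the array was MRPL or MRPS followed by a number and, at most, a letter from A to C. This gave 76 genes of 32080 gene symbols on the array, 47 of the large subunit (MRPL) and 29 of the small subunit (MRPS), with 97 of the 50599 probes. This rule used names only and no measured value, although the family was chosen with earlier results of these data known. Where a gene had several probes, the brightest over the 16 arrays was used. All 76 passed the filter on dim probes in both lines and were well above background on all 16 arrays.

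The mitochondrial ribosome is assembled in the matrix from proteins made in the cytosol and RNAs encoded by the mitochondrial genome. It translates the few messages of that genome, all of which encode core subunits of the respiratory chain and ATP synthase. Its large subunit joins amino acids and holds the exit tunnel for the new chain, and its small subunit binds the messenger RNA and decodes it. Some of the proteins have counterparts in bacterial ribosomes, whereas others occur in mitochondria only.

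Both lines, RPMI-8226 and MM.1S, are long-established and derive from human myeloma. Cells of each line received DMSO as the vehicle control, GSK126 at 1 µM, UNC0638 at 1 µM, or both compounds at 1 µM each, and RNA was taken after 6 days. GSK126 inhibits EZH2, which methylates lysine 27 of histone H3, and UNC0638 inhibits G9a and GLP, which methylate lysine 9. Each of the 8 groups had 2 samples, each hybridised to an Agilent array read in 1 colour, which allowed the effect of each inhibitor and of the pair to be compared within each line. The study calls the replicates biological, but the sources used here do not say whether they were separate cultures or treatments, so p-values measure the spread between these samples only.

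Levels are log2 of the processed signal minus the log2 75th percentile of the same array, so 0 is that percentile and a difference of 1 is a 2-fold change. The percentile lay between 256 and 349 intensity units in RPMI-8226 and between 431 and 477 in MM.1S, and 46.5% to 49.7% and 49.9% to 52.8% of spots were well above background. Each line was on a slide of its own, so slide and line cannot be told apart, whereas each slide held all 4 treatments. The 9 plasma cell markers examined (SDC1, TNFRSF17, CD38, XBP1, PRDM1, IRF4, MZB1, SLAMF7 and POU2AF1) were above background on all 8 arrays of each line. Markers of other cell types were not all absent. In RPMI-8226, 2 of 3 T cell and 2 of 2 myeloid markers were above background on all 8 arrays. The counts there were 2 of 3 for epithelial and 1 of 3 for fibroblast markers. In MM.1S they were 2, 1, 1 and 0 in the same order. Of the epithelial markers, EPCAM and KRT18 had mean levels of 4.49 and 5.67 in RPMI-8226. KRT19 was above background on 0 of 8 arrays there (mean level -5.86). Their part in the results was not tested.

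Promoters are shown for 4 members whose transcripts the results turn on. On the probes used, MRPL12 had the largest fall, MRPS34 and MRPL37 also fell past 2-fold in MM.1S, and MRPS6 rose in RPMI-8226. Each sequence is the 250 bases before the gene's start, 5′ to 3′ on the gene's strand, taken from RefSeq on GRCh38.p14. Capitals mark exact matches, on either strand, to 4 short motifs. These were GCATGCGC, bound by NRF1, CCGGAAG, the core bound by ETS factors such as GABPA, CACGTG, the E-box bound by MYC with MAX, and AAGATGGC, bound by YY1. The intervals are chr17:81703117-81703366 on the plus strand for MRPL12, chr16:1773135-1773384 on the minus strand for MRPS34, chr1:54199917-54200166 on the plus strand for MRPL37 and chr21:34073328-34073577 on the plus strand for MRPS6.
MRPL12: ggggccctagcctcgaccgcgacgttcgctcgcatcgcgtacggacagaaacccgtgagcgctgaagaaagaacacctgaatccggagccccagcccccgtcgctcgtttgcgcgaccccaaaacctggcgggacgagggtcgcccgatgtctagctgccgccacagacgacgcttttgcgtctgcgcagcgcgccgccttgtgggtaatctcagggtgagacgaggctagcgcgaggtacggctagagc
MRPS34: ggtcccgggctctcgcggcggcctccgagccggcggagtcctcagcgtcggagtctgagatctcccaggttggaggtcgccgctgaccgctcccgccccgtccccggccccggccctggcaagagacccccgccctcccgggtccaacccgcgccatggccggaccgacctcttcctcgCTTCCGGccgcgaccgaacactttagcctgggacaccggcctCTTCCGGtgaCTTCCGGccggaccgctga
MRPL37: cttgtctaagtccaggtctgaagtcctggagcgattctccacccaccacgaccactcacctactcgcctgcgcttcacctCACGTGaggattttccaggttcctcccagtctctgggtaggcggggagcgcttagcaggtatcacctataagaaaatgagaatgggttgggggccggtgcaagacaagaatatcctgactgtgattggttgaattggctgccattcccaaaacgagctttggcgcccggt
MRPS6: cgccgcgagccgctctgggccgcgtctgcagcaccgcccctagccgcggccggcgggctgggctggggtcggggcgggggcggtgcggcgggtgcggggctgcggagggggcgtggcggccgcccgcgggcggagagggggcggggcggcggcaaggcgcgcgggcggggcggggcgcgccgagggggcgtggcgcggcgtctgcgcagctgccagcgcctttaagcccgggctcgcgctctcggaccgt
MRPS34 held 3 ETS matches and MRPL37 held an E-box, while MRPL12 and MRPS6 held no match in this window. Of the 76 members, 67 had a promoter under their symbol, and the others were MRPL2, MRPL10, MRPL13, MRPL15, MRPL21, MRPL23, MRPL35, MRPS28 and MRPS36. The ETS motif was in 22 of 67 members (32.8%) against 8.82% of all 27305 promoters of the same length. The NRF1 motif was in 6 members (8.96% against 2.81%), the YY1 motif in 5 (7.46% against 1.37%) and the E-box in 6 (8.96% against 6.49%). With the combination in MM.1S the median log2 change was -0.70 for the 22 members with an ETS match and -0.64 for the 45 without, and the ranges overlapped (-1.06 to -0.32 and -1.48 to -0.23). In RPMI-8226 the order was the opposite, with -0.19 and -0.27. The medians in MM.1S with and without a match were -0.66 and -0.69 for the NRF1 motif, -0.73 and -0.68 for the E-box and -0.88 and -0.68 for the YY1 motif, the last with 5 members. A match describes the letters of the window and is not a measured binding site.

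In MM.1S, treatment with both inhibitors lowered almost the whole family. The fitted change was below 0 for 76 of 76 members, with a median of -0.68 on the log2 scale, and 72 fell at an adjusted p under 0.05 (limma, Benjamini-Hochberg adjustment over all probes kept). Over all probes tested in this comparison, 31.7% were called lower and 22.2% higher, and no member was called higher. The median change over the 16986 genes kept was -0.11. On the 2 DMSO arrays of MM.1S the members' median level was 4.06 and 3.98, against -0.03 and -0.02 over all genes. The shares over all probes thus include dimmer probes, and no share matched for level is given. Members in the middle of the family changed by between -0.81 and -0.49 (the quartiles), so the fall was moderate and broad. On the probes used, 6 members were past 2-fold. The level of both combination arrays lay below both DMSO arrays for 75 of 76 members, against 46% of all probes. MRPS25 was the exception. With 2 arrays per group, any value here rests on 4 arrays and a spread pooled over the 8 arrays of the line.

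**Figure D1:**
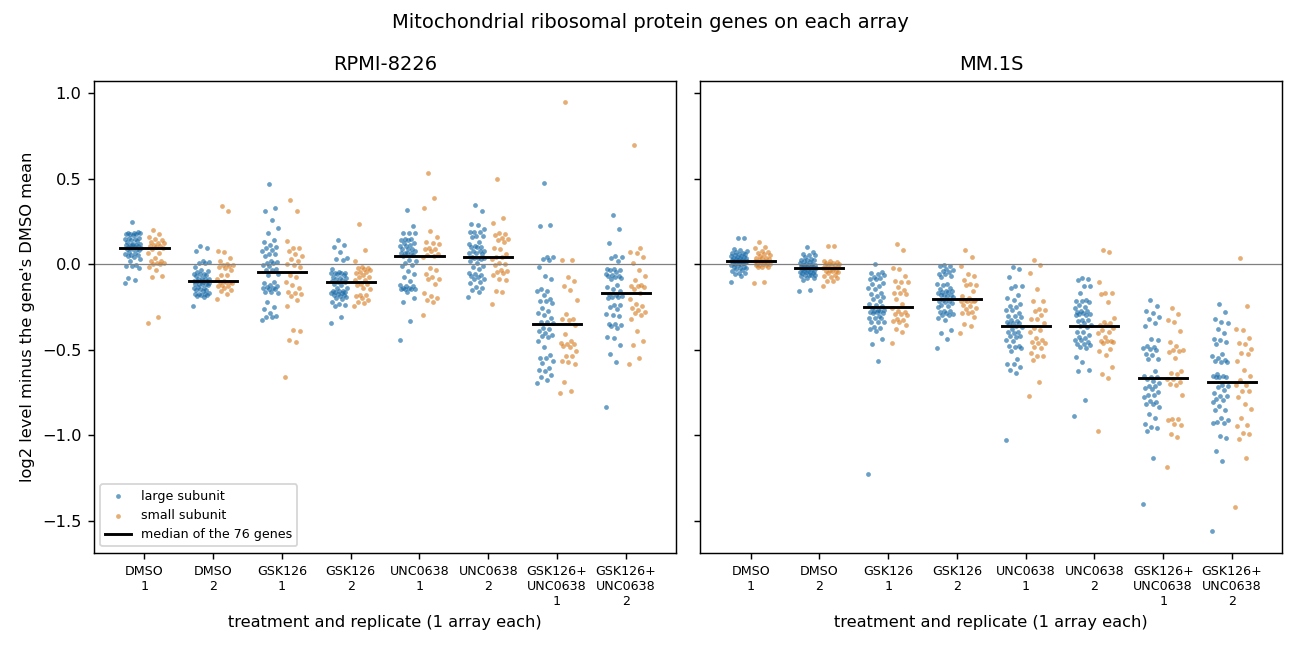
Level of each of the 76 mitochondrial ribosomal protein genes on each of the 16 arrays, as log2 level minus the gene's mean over the 2 DMSO arrays of the line. Points are genes (blue large subunit, orange small subunit) and the black bar is their median, which lay at -0.67 and -0.69 on the 2 combination arrays of MM.1S and at -0.35 and -0.17 on those of RPMI-8226.

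The arrays of a group gave like medians in MM.1S. Relative to the DMSO mean, the median over the members was -0.25 and -0.20 on the 2 GSK126 arrays, -0.36 and -0.36 on the UNC0638 arrays and -0.67 and -0.69 on the combination arrays. On these last arrays 76 and 75 of 76 members lay below their DMSO mean. In RPMI-8226 the 2 DMSO arrays themselves lay apart, with medians of 0.10 and -0.10 around their mean, while the GSK126 arrays gave -0.05 and -0.10, the UNC0638 arrays 0.05 and 0.04 and the combination arrays -0.35 and -0.17.

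MRPL12 is a large subunit protein of the flexible stalk that recruits translation factors, and is also reported to bind the mitochondrial RNA polymerase. MRPL12 showed the largest fall on the probes used. Its levels in MM.1S were 3.90 and 3.90 in DMSO, 3.34 and 3.41 with GSK126, 2.88 and 3.02 with UNC0638, and 2.50 and 2.34 with both. The 4 groups did not overlap and were ordered from DMSO through GSK126 and UNC0638 to the combination. The combination changed it by -1.48 ± 0.09 (SE, n = 2 arrays per group), a 2.79-fold reduction (limma, adjusted p = 0.00022), and a second probe of the gene changed by -1.33. This probe lies at chr17:79674001-79674060 of the hg19 assembly.

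MRPS2, a small subunit protein with a bacterial counterpart, came next. Its levels in MM.1S were 5.14 and 5.06 in DMSO, 4.77 and 4.75 with GSK126, 4.33 and 4.13 with UNC0638, and 3.91 and 3.68 with both. Again no groups overlapped. The fall with both compounds was 2.47-fold (log2 change -1.30 ± 0.11, SE, limma, adjusted p = 0.000471). Its probe lies at chr9:138396341-138396400 of hg19.

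The 3 remaining members of the 5 largest falls were MRPL2, which sits by the catalytic centre of the large subunit, MRPL4, which lines part of the exit tunnel, and MRPS34, a small subunit protein without a bacterial counterpart. MRPL2 measured 0.31 and 0.42 in DMSO and -0.76 and -0.65 with the combination. MRPL4 measured 5.46 and 5.36 against 4.43 and 4.26. MRPS34 measured 3.98 and 4.01 against 3.0 and 2.86. For all 3 the combination arrays lay below both DMSO arrays, and the fitted changes were -1.07, -1.06 and -1.06 with limma adjusted p-values of 0.00048, 0.000492 and 0.000344. Under quantile normalization MRPL4 was -0.69 and still called. MRPL37, chosen after its value was seen as the last past 2-fold, changed by -1.02 ± 0.08 (SE).

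**Figure D2:**
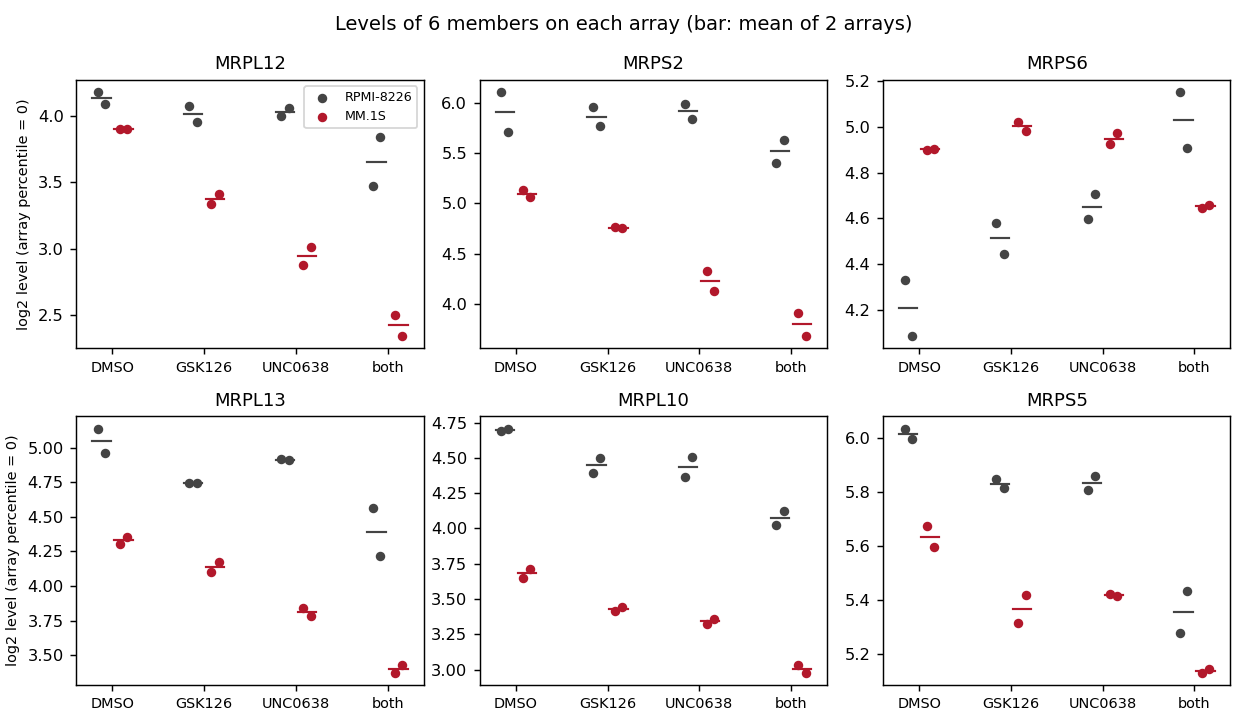
Log2 level of 6 members on each array, with a bar at the mean of the 2 arrays of a group, for RPMI-8226 (grey) and MM.1S (red). In MM.1S, MRPL12 went from 3.90 in DMSO to 2.50 and 2.34 with both compounds, while MRPS6 went from 4.33 and 4.09 to 5.15 and 4.91 in RPMI-8226.

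The 4 members not called with the combination in MM.1S were MRPL35, MRPL41, MRPS16 and MRPS25, named after their values were seen. Their changes were also below 0, at -0.43, -0.24, -0.34 and -0.23, with limma adjusted p-values of 0.295, 0.0568, 0.0595 and 0.29, and those of MRPL41 and MRPS16 turned to 0.21 and 0.13 under quantile normalization. A second probe of MRPS16 changed by -0.42 and was called lower. MRPL35 had a wide spread because 1 of its GSK126 arrays read -0.10 while the other read 0.97. MRPS25 read 0.43 and 0.44 in DMSO and -0.07 and 0.47 with both compounds, so its combination arrays lay on either side of DMSO and its change was 0.03 without combination replicate 1.

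**Figure D3:**
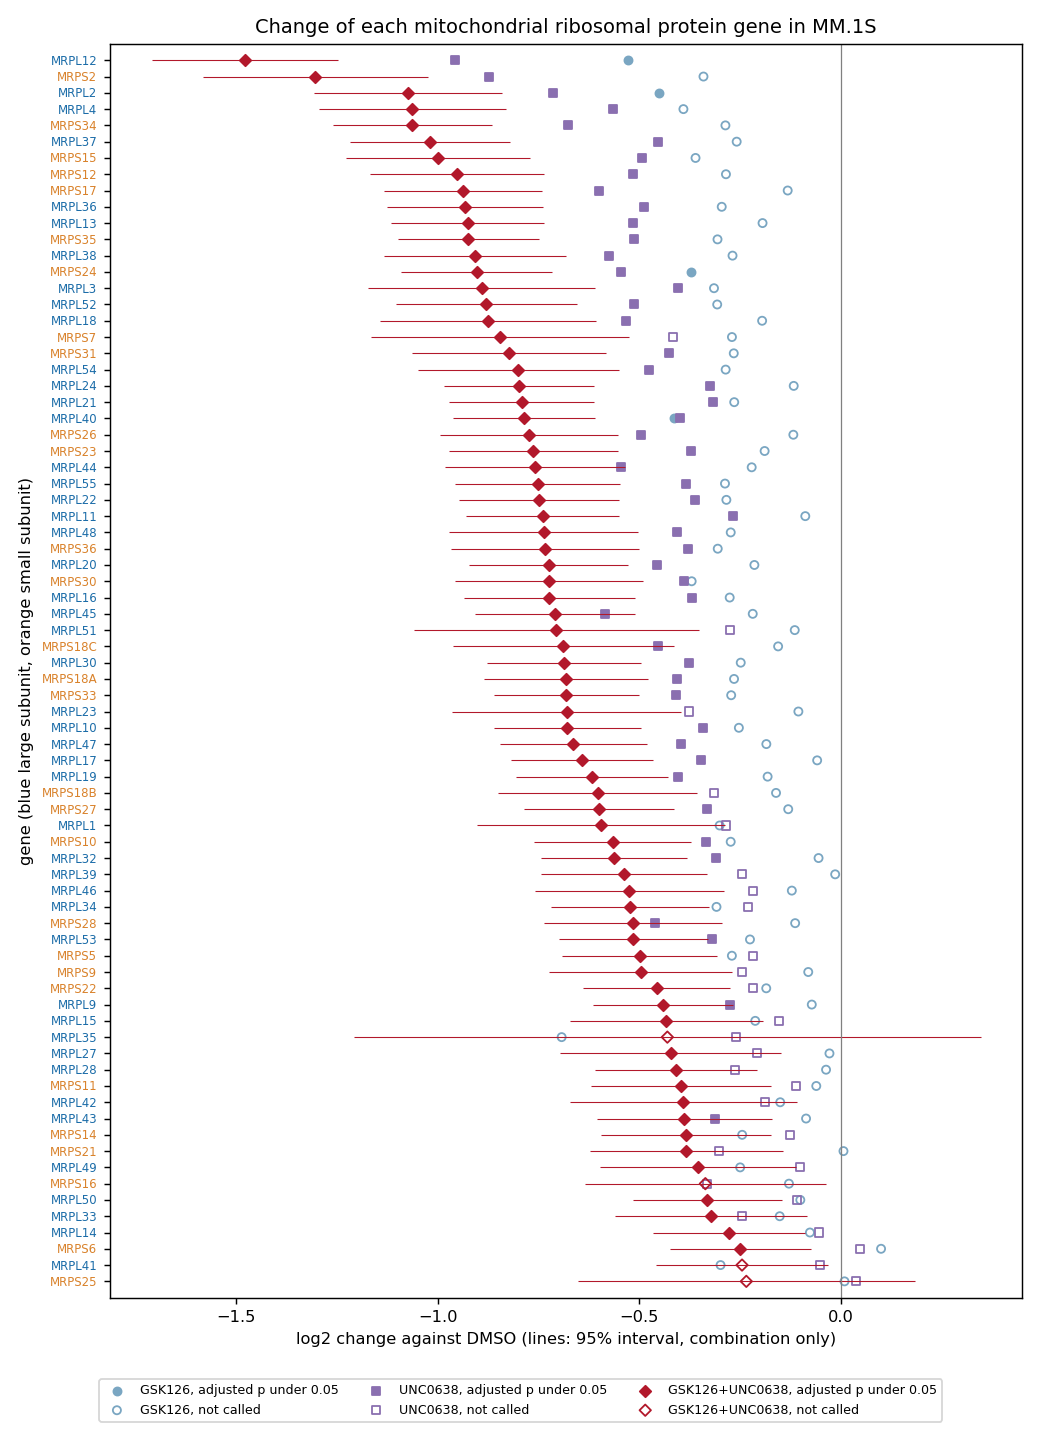
Fitted log2 change against DMSO of each of the 76 genes in MM.1S with GSK126 (circles), UNC0638 (squares) and both (diamonds), ordered by the combination, with 95% intervals for the combination only. Filled symbols have a limma adjusted p under 0.05, which holds for 4, 49 and 72 genes, and all 76 diamonds lie below 0.

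The scaling of the arrays bears on the size of this fall. With the 75th percentile taken over the probes above background on all 16 arrays, the median over all genes in MM.1S moved from -0.11 to 0.08, a shift over 0.1, and the share of all calls that were lower moved from 58.8% to 42%. The members' median was then -0.50 with 59 lower and 0 higher, and its distance from the median over all genes, which both scalings leave the same by construction, was -0.57. Quantile normalization gave a median of -0.39 with 49 members lower and 0 higher, 71 of 76 below 0 and a distance of -0.33 from all genes, while 28.4% of all probes were called lower.

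Each inhibitor was also compared singly with DMSO in MM.1S, and the 2 inhibitors were not tested against each other. UNC0638 lowered 49 of 76 members and raised none, with a median change of -0.37, against 16.5% of all probes called lower and 12.8% called higher (limma). GSK126 lowered 4 and raised none, with a median of -0.22, against 2.39% lower and 5.19% higher. These comparisons share the DMSO arrays. The 4 members that fell with GSK126 were MRPL12 (-0.53), MRPL2 (-0.45), MRPL40 (-0.41) and MRPS24 (-0.37), and each was also called lower with UNC0638 and with the combination. All 49 members lowered by UNC0638 were called lower with the combination, and 23 were called with the combination alone. Quantile normalization left 16 members lower and 1 higher with UNC0638 and 0 called with GSK126. Leaving out an array at a time gave 13 calls with UNC0638 without DMSO replicate 1, 14 without either UNC0638 array and 23 without DMSO replicate 2. With GSK126 it gave 1 call without GSK126 replicate 2 and 0 without any other of the 4 arrays, and with the combination 59 to 69. With the percentile over probes above background on all 16 arrays, the share of all calls that were lower moved from 56.3% to 40.4% for UNC0638 and from 31.5% to 16.6% for GSK126, and 30 and 2 members were lower. For GSK126 it was 45.1% after normexp background correction, with 10 members lower.

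The combination was compared directly with each compound. Against GSK126 alone, 62 members were lower and none higher, with a median of -0.46, where 22% of all probes were called lower and 15.1% higher. Against UNC0638 alone, 24 were lower and none higher, with a median of -0.30, where 7.43% were called lower and 6.03% higher. MRPL37 had the smallest adjusted p of the second comparison (limma, adjusted p = 0.0172). In that comparison 7 members were called without combination replicate 1 and 0 without the other combination array or without either UNC0638 array, and quantile normalization gave 8.

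No departure from additivity was called. Taking the combination minus the sum of the separate changes, 0 of 76 members passed in MM.1S, where 0% of all probes were called lower and 0% higher, and 4 members had an unadjusted p under 0.05, all negative (limma). The median departure was -0.09 and the range -0.40 to 0.52, the highest value being that of MRPL35. In RPMI-8226, 0 members passed and 0 had an unadjusted p under 0.05, where 0.00431% of all probes were called lower and 0.159% higher, with a median of -0.19. The shares of all probes here are at an adjusted p, so they are no background for the counts at an unadjusted p. A limma fit with an intensity-dependent prior variance also called 0 members in each line.

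The RPMI-8226 response was smaller and held few calls. With the combination the median was -0.26 with 69 of 76 members below 0, 3 members fell and 1 rose, while 5.17% of all probes were called lower and 7.2% higher (limma) and the median over 16018 genes was -0.10. The 3 that fell were MRPS5, MRPL13 and MRPL10, and the member that rose was MRPS6. Both combination arrays lay below both DMSO arrays for 45 of 76 members, against 39.2% of all probes. With the replicate number as a block, 6 members fell and 1 rose. Under quantile normalization the members' median was -0.04, the same as that of all genes (-0.04), and the call for MRPS6 was the only one left. Without any 1 of the 4 arrays compared, 0 members were called. With the percentile over probes above background on all 16 arrays, the median over all genes was 0.03, the share of all calls that were lower moved from 41.8% to 24.8%, and 1 member was lower and 1 higher.

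MRPS5 is a small subunit protein near the entry of the messenger RNA channel. In RPMI-8226 it measured 6.04 and 6.00 in DMSO, 5.85 and 5.82 with GSK126, 5.81 and 5.86 with UNC0638, and 5.28 and 5.44 with both. The combination arrays were the lowest and overlapped no other group. The change was -0.66 ± 0.13 (SE, limma, adjusted p = 0.0257), and that in MM.1S was -0.50 ± 0.08 (SE, limma, adjusted p = 0.00304). Under quantile normalization MRPS5 was called in neither line, at -0.38 (limma, adjusted p = 0.0832) in RPMI-8226 and -0.07 (limma, adjusted p = 0.502) in MM.1S.

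MRPL10 is the large subunit protein that anchors MRPL12 to the stalk. It measured 4.69 and 4.71 in DMSO and 4.02 and 4.13 with both compounds in RPMI-8226, and 3.65 and 3.72 against 3.03 and 2.98 in MM.1S. The DMSO and combination arrays were apart in each line. Its changes were -0.63 (limma, adjusted p = 0.033) and -0.68 (limma, adjusted p = 0.000863). A second probe of MRPL10 gave -0.60 in RPMI-8226, not called, and -0.47 in MM.1S, called lower. MRPL13, another large subunit protein with a bacterial counterpart, measured 5.14 and 4.96 in DMSO against 4.56 and 4.22 in RPMI-8226, a change of -0.66 (limma, adjusted p = 0.0464), and changed by -0.93 in MM.1S. MRPS5, MRPL10 and MRPL13 were the members called lower with the combination in both lines. Under quantile normalization the values of MRPL10 and MRPL13 were -0.39 and -0.41 in RPMI-8226, neither called, and -0.40 and -0.59 in MM.1S, both called.

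MRPS6, a small subunit protein with a bacterial counterpart, was the only member called in opposite directions. In RPMI-8226 it measured 4.33 and 4.09 in DMSO, 4.58 and 4.44 with GSK126, 4.60 and 4.70 with UNC0638, and 5.15 and 4.91 with both. The DMSO arrays were the lowest and the combination arrays the highest, and the 2 single treatments lay between. The combination raised it 1.77-fold (log2 change 0.82 ± 0.16, SE, limma, adjusted p = 0.0252). In MM.1S it measured 4.90 and 4.90 in DMSO, 5.02 and 4.98 with GSK126, 4.92 and 4.98 with UNC0638, and 4.65 and 4.66 with both. Here the combination arrays were the lowest, with a change of -0.25 (limma, adjusted p = 0.0281), which turned to 0.16 under quantile normalization. The call for MRPS6 was lost in 5 of 11 alternatives in MM.1S and in 2 of 11 in RPMI-8226. These 11 do not include the fits that left out an array, described above for RPMI-8226. Its probe lies at chr21:35515227-35515286 of hg19.

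The single compounds gave no calls among the members in RPMI-8226. GSK126 gave a median of -0.09 (range -0.42 to 0.30) with 0 called by limma and 0 at an unadjusted p under 0.05, where 0.0517% of all probes were called lower and 0.547% higher. UNC0638 gave a median of 0.04 (range -0.26 to 0.44) with 0 called and 1 at an unadjusted p under 0.05 (MRPS6, higher), where 0.0776% were called lower and 0.556% higher. An intensity-dependent prior variance also gave 0 calls in both. Against GSK126 alone the combination called 0 members in RPMI-8226, with 9 lower and 1 higher at an unadjusted p under 0.05, where 0.543% of all probes were called lower and 2.01% higher. Against UNC0638 alone it called 0, with 16 lower and 0 higher at an unadjusted p under 0.05, where 0.698% were called lower and 2.69% higher. The shares of all probes in this paragraph are at an adjusted p under 0.05. They are no background for the counts at an unadjusted p, for which no share over all probes is given. With the intensity-dependent prior variance the members called against GSK126 alone and UNC0638 alone were 1 and 2. In 1 fit over all 16 arrays they were 6 and 12. The shares of all probes called under these settings are not given, so a rise particular to the members is not shown.

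The difference in response between the lines was tested directly, as the change in RPMI-8226 minus the change in MM.1S. For the combination 20 of 76 members differed (limma), all in the direction of a lower value in MM.1S, with a median difference of 0.44 over the family, where 7.28% of all probes were called higher and 6% lower by the same measure. The 20 comprised 13 large and 7 small subunit members, all of which fell in MM.1S, and 1 of which (MRPS6) was called in RPMI-8226. MRPS6 had the largest difference (1.07, limma, adjusted p = 0.00329), followed by MRPL12 (1.00, adjusted p = 0.00712) and MRPS2 (0.91, adjusted p = 0.0245). The count was 29 without DMSO replicate 1 and 4 without DMSO replicate 2 of RPMI-8226, and 19 and 7 without combination replicates 1 and 2 of that line. In MM.1S it was 3 and 5 without DMSO replicates 1 and 2, and 6 and 3 without combination replicates 1 and 2.

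For UNC0638 MRPL12 was the only member that differed (0.85, limma, adjusted p = 0.0401), where 1.11% of all probes were called higher and 1.79% lower. All 76 differences were above 0, with a median of 0.40, and 41 had an unadjusted p under 0.05. No share of all probes above 0 or at an unadjusted p is given, so these do not single out the family. The shares given are at an adjusted p, by which MRPL12 alone was called. The count was 8 without DMSO replicate 1 of RPMI-8226 and 0 without any other of the 8 arrays, and the share of all calls that were lower moved from 61.7% to 72.1% with the percentile over probes above background on all 16 arrays. For GSK126 0 members differed by limma and 2 had an unadjusted p under 0.05, where 0.356% of all probes were called higher and 0.427% lower, and the intensity-dependent prior variance also gave 0. Across the 76 genes, which are not independent replicates, the combination changes of the lines had a Pearson r of 0.45 and a Spearman rho of 0.42. For 70 of 76 members the fitted change was lower in MM.1S. The share of all genes with a lower change in MM.1S is not given. The median combination change over all genes was -0.11 in MM.1S and -0.10 in RPMI-8226.

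**Figure D4:**
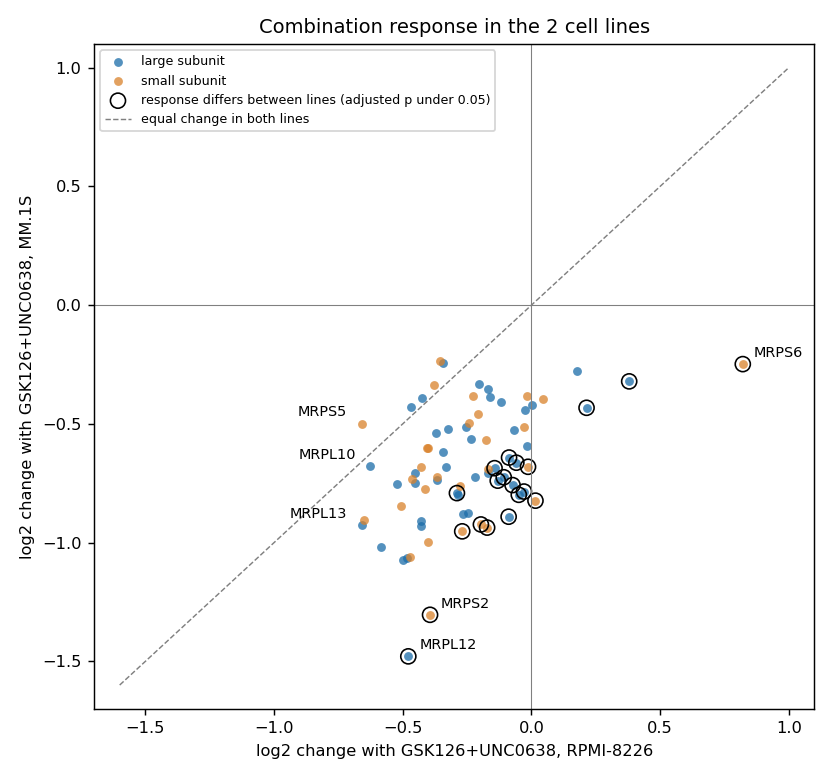
Fitted log2 change with both compounds in RPMI-8226 (horizontal) against MM.1S (vertical) for the 76 genes, with the dashed line at equal change. Rings mark the 20 genes whose response differed between the lines (limma, adjusted p under 0.05), and 70 genes lie below the dashed line.

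The large and small subunits had similar median changes. In MM.1S the combination lowered 45 of 47 large subunit members (median -0.69) and 27 of 29 small subunit members (median -0.68), UNC0638 lowered 31 (median -0.35) and 18 (median -0.39), and GSK126 lowered 3 (median -0.22) and 1 (median -0.24). The large-minus-small difference of medians for the combination was -0.0045 in MM.1S and 0.030 in RPMI-8226. On single arrays relative to DMSO the medians were -0.67 and -0.66 for large and -0.64 and -0.70 for small subunit members with the combination in MM.1S, so the sign of the difference was not the same on the 2 arrays. Counting MRPS30 and MRPS18A with the large subunit, where structures of the mammalian ribosome place them, gave combination medians of -0.69 for 49 large and -0.68 for 27 small subunit members in MM.1S, and of -0.25 and -0.27 in RPMI-8226.

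Proteins with a bacterial counterpart (48 members) and those particular to mitochondria by the classification used (28 members) also had like values. With the combination in MM.1S 46 of the first group fell (median -0.68) and 26 of the second (median -0.72), and in RPMI-8226 the medians were -0.24 and -0.28. MRPS36, which is a component of the oxoglutarate dehydrogenase complex in mammals in spite of its name, changed by -0.73 in MM.1S.

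The members did not have the same starting level in the 2 lines. In DMSO, 31 were higher and 16 lower in RPMI-8226 than in MM.1S (limma), where 28.4% of all probes were called higher and 29.3% lower, and the median difference was 0.23. The largest differences were those of MRPS21 (1.68) and MRPS35 (1.67), which were higher in RPMI-8226, and MRPL40 (-1.41) and MRPL41 (-1.27), which were lower, all chosen after their values were seen. Line and slide cannot be told apart in these values.

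Proteins of the same ribosome that carry other symbols were read as a separate list of 7 genes. In MM.1S, where 31.7% of all probes were called lower with the combination, 6 of 7 fell (median -0.63). These were AURKAIP1 (-0.96) and GADD45GIP1 (-0.87), ICT1 (-0.69), which is also a peptidyl-tRNA hydrolase, PTCD3 (-0.63), DAP3 (-0.60), a GTP-binding protein of the small subunit, and CHCHD1 (-0.46). Under quantile normalization DAP3 and CHCHD1 were not called, at -0.11 (limma, adjusted p = 0.319) and -0.07 (limma, adjusted p = 0.524), AURKAIP1 and ICT1 were called at -0.62 and -0.33, and PTCD3 was not called in 1 fit over all 16 arrays (limma, adjusted p = 0.094). MRP63 changed by -0.37 (limma, adjusted p = 0.0703). In RPMI-8226 0 of 7 were called by limma, where 5.17% of all probes were called lower and 7.2% higher. The values were -0.73 for GADD45GIP1, -0.67 for PTCD3, -0.64 for MRP63 and -0.47 for DAP3. They were -0.40 for ICT1, -0.31 for AURKAIP1 and -0.13 for CHCHD1, the last turning to 0.07 under quantile normalization.

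Genes that serve the ribosome were also lower in MM.1S with the combination, where 31.7% of all probes were called lower. Of 16 translation factors 14 fell (median -0.64), led by SLIRP (-1.12), which stabilises mitochondrial messenger RNA with LRPPRC, and TUFM (-0.95), the elongation factor that delivers aminoacyl-tRNA. Of 21 genes of ribosome assembly and ribosomal RNA modification 17 fell (median -0.69), led by RBFA (-1.08), which matures the small subunit, and NOA1 (-0.98), a GTPase. Of 17 mitochondrial aminoacyl-tRNA synthetases 13 fell (median -0.43), led by MARS2 (-1.35) and SARS2 (-1.14). MARS2 was -0.38 after normexp and TUFM -0.61 under quantile normalization, both still called. Of 5 genes of mitochondrial transcription 3 fell (median -0.57), among them POLRMT (-0.89), the mitochondrial RNA polymerase, and TFB2M (-0.61), which melts the promoter for it.

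In RPMI-8226, where 5.17% of all probes were called lower with the combination, these 4 lists held 2 calls. They were LRPPRC (-0.82, limma, adjusted p = 0.0369) and GFM2 (-0.56, limma, adjusted p = 0.0468), a factor that recycles ribosomes. Neither was called under quantile normalization (adjusted p = 0.0686 and 0.12).

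**Figure D5:**
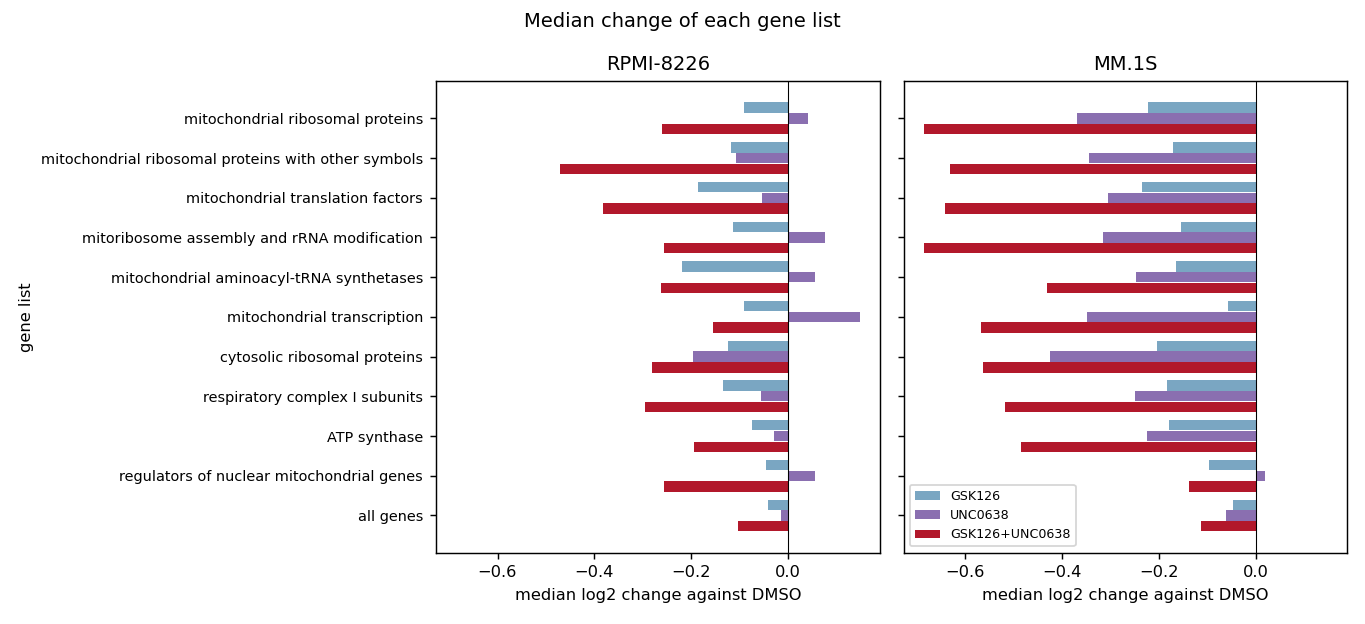
Median fitted log2 change against DMSO of the mitochondrial ribosomal proteins, of the other gene lists and of all genes kept, for each treatment in RPMI-8226 (left) and MM.1S (right). In MM.1S the combination median was -0.68 for the mitochondrial ribosomal proteins, -0.56 for the cytosolic ribosomal proteins and -0.11 for all genes.

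The change in MM.1S was not particular to mitochondrial ribosomes. With the combination 31.7% of all probes were called lower and 22.2% higher. Of 84 cytosolic ribosomal proteins kept, 79 fell and 1 rose (median -0.56), with RPS2 (-1.31) among the falls and RPS27L (0.77) the rise. Of 37 respiratory complex I subunits 30 fell (median -0.52), led by NDUFV2 (-0.83) and NDUFS6 (-0.78), and of 15 ATP synthase genes 14 fell (median -0.48), led by ATP5G1 (-1.15) and ATP5I (-1.01). With UNC0638 67 cytosolic ribosomal proteins fell and 1 rose (median -0.42), and 14 of 37 complex I and 6 of 15 ATP synthase genes fell, where 16.5% of all probes were called lower. Under quantile normalization the combination gave -0.85 for RPS2, -0.34 for NDUFV2, -0.34 for NDUFS6 and -0.59 for ATP5I, all called. In RPMI-8226 the combination lowered 2 of 86 cytosolic ribosomal proteins, RPS14 (-0.67) and RPL39L (-0.64), and 2 of 37 complex I subunits, NDUFV2 (-0.67) and NDUFS7 (-0.65), and called no ATP synthase gene, where 5.17% of all probes were called lower. RPS14 was not called in 5 of 11 alternatives, and RPL39L, NDUFV2 and NDUFS7 were each not called in 4 of 11.

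Among 10 regulators of nuclear genes for mitochondrial proteins, 4 fell and 1 rose with the combination in MM.1S, where 31.7% of all probes were called lower and 22.2% higher, so the counts were close to or below those shares. MYC, a transcription factor that drives ribosome production, changed by -1.71 (limma, adjusted p = 0.000281), GABPB1, a subunit of the factor GABP that binds the ETS motif, by -1.13 (-0.63 as the mean over its probes), and the coactivator PPRC1 by -0.96. NRF1, which binds the motif named above, changed by -0.34 (limma, adjusted p = 0.0332) and MYCN by 0.88 (limma, adjusted p = 0.0199). GABPA and YY1 gave 0.21 and -0.09 and were not called. In RPMI-8226, where 5.17% of all probes were called lower and 7.2% higher, 0 of 10 were called by limma. MYC changed by -0.60 (limma, adjusted p = 0.0799) and GABPB1 by -0.61 (limma, adjusted p = 0.0612). These values stand beside those of the members, and their part in the change of the members was not tested.

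Of the members with several probes kept, 11 of 17 in MM.1S and 14 of 15 in RPMI-8226 had the same call on every probe with the combination. The 6 that did not in MM.1S were MRPL30, MRPL38, MRPL43, MRPL52, MRPS16 and MRPS18C. Their less bright probes gave, for example, -0.17 for MRPL52 against -0.88 on the probe used, and 0.35 for MRPL43 against -0.39. For MRPS16 the less bright probe was called lower (-0.42), while the probe used was not (-0.34). In RPMI-8226 MRPL10 was called lower on the probe used (-0.63) and not on the other (-0.60). MRPL19 was called lower on all 3 probes in MM.1S. Their changes ran from -1.68 to -0.34, with -0.62 on the probe used. The lowest was below the -1.48 of MRPL12. The mean over a gene's probes called 71 members in MM.1S and 6 in RPMI-8226.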

How the data were processed

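RNA from 16 samples of 2 cell lines was hybridised in 1 colour to Agilent arrays. The deposited scanner files hold intensity per spot from Agilent Feature Extraction 10.7, in which the authors' processed signal is background-subtracted, with flags of another unit for spots well above background. Probe positions are those of the array design on hg19. The deposited series table held the same values to 3 significant digits (99.9958% of 939472) and gave the same counts. No columns of per-sample values were left unused.

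Control and outlier spots were left out, spots of a probe averaged, and log2 of the processed signal taken minus the log2 75th percentile of the array. Dim probes were dropped unless 1 or more groups of the line had the probe flagged well above background on each of the 2 arrays, which left 23199 probes in RPMI-8226, 25102 in MM.1S and 26931 in either. Groups were compared with limma 3.58.1 in R 4.3.3 (lmFit and eBayes), in 1 fit of 8 arrays per line and of 16 arrays between lines, with Benjamini-Hochberg adjustment over all kept probes at a threshold of 0.05. Shares of all probes called use the adjusted p throughout, also where they stand near counts of members at an unadjusted p. The number of arrays limits the precision. The limma fit was tested on simulated arrays with known changes, for the combination against DMSO in each line. The other steps were not tested in this way.

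Replicate numbers are given in the labels. In RPMI-8226 the deviations of same-numbered samples correlated above 0.1 in 6 of 6 pairs of groups (0.254 to 0.415). The numbers were therefore taken to pair the samples there, and blocked values are given where they changed a count by over 1.5 times. The SE and p-values printed for single genes in RPMI-8226 come from the fit without that block.

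Members and gene lists were chosen with earlier results of these data known. Genes named were the 5 largest called falls and rises per line with the combination, members called in the same direction in both lines, the 3 largest called line differences, members called in opposite directions, each mitochondrial ribosomal protein with another symbol, and the 2 largest called changes of each other list. A gene that this rule named is not reported here. Alternatives covered normalization, background correction, probe filter, choice of probe, samples in the fit, prior variance, the replicate block and leaving out each array. Unless a share of all probes under the alternative is given, its count of members does not show a move particular to them. Of 22 assembly genes listed, 21 were found under their symbol.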

Additional observations from a re-analysis of the deposited data

Results flagged for a closer look

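The response to treatment differed between the lines for 20 members with the combination and 1 with UNC0638, tested as the change in RPMI-8226 minus the change in MM.1S in 1 limma fit over the 16 arrays. With UNC0638 the difference of MRPL12 was 0.85 on the log2 scale. With the combination it was 1.07 for MRPS6, 1.00 for MRPL12 and 0.91 for MRPS2. Small subunit members MRPS31, MRPS17, MRPS35, MRPS12 and MRPS33 differed by 0.84, 0.76, 0.73, 0.68 and 0.67. Large subunit members MRPL3, MRPL40, MRPL24, MRPL33, MRPL44 and MRPL15 differed by 0.80, 0.76, 0.75, 0.70, 0.68 and 0.65. MRPL20, MRPL11, MRPL47, MRPL17, MRPL30 and MRPL21 differed by 0.62, 0.61, 0.60, 0.56, 0.54 and 0.50. All of these values are above 0, and slide and line cannot be told apart in them.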

How the results depend on the processing

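The fall of the family with the combination in MM.1S kept its direction under every alternative run, with 49 to 74 members called. Quantile normalization gave 1 member called with the combination in RPMI-8226 (median -0.0419), and in MM.1S 0 with GSK126 (median -0.11), 17 with UNC0638 (median -0.21), a combination median of -0.39, 41 for the combination against GSK126 and 8 against UNC0638. It also turned CHCHD1 in RPMI-8226 to 0.0706 and MRPS6, MRPL41 and MRPS16 in MM.1S to 0.16, 0.21 and 0.13. The percentile over probes above background on all 16 arrays gave 2 with the combination in RPMI-8226, and in MM.1S 2 with GSK126 (median -0.15), 30 with UNC0638 (median -0.28), a combination median of -0.50 and 7 against UNC0638. Normexp gave 9 with the combination and 1 against UNC0638 in RPMI-8226, 10 with GSK126 and 46 against UNC0638 in MM.1S, and 3 line differences with UNC0638. No filter gave 0 with the combination in RPMI-8226, 0 with GSK126, 20 with UNC0638 and 0 against UNC0638 in MM.1S, and 0 and 4 line differences with UNC0638 and the combination. An intensity-dependent prior variance gave 13, 1 and 2 in RPMI-8226 (combination against DMSO, GSK126 and UNC0638), 31 with GSK126 and 58 against UNC0638 in MM.1S, and 11 and 32 line differences. Only the groups compared gave 0 with the combination in RPMI-8226, and 0, 28 and 0 in MM.1S (GSK126, UNC0638, combination against UNC0638). A fit over all 16 arrays gave 23, 6 and 12 in RPMI-8226 and 0, 32 and 5 in MM.1S for the same comparisons. Line differences with UNC0638 numbered 2 both with probes above background on all arrays and with the mean over probes. These counts are of members only, and the shares over all probes under each setting are not set beside them here. They do not show whether a move was particular to the members. The cause of these changes was not tested.

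With the replicate block, 7 members were called with the combination in RPMI-8226 and 4 line differences with UNC0638. The counts with the block are of members only, and the shares of all probes called with it are not given. In MM.1S 5 of 6 pairs of groups correlated above 0.1 (0.085 to 0.225). Not all pairs passed, and the numbers were not taken to pair the samples there, though a weak pairing is not excluded. In MM.1S the block gave 5, 51 and 73 called against 4, 49 and 72.

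Leaving out an array gave 0 called with the combination in RPMI-8226 (medians -0.35 to -0.17), and in MM.1S 0 to 1 with GSK126, 13 to 23 with UNC0638, 59 to 69 with the combination, 39 to 54 for the combination against GSK126 and 0 to 7 against UNC0638. Line differences numbered 0 to 8 for UNC0638 and 3 to 29 for the combination, and members differing in DMSO from 34 to 42. In RPMI-8226 the GSK126 median ranged from -0.16 to 0.01 and the UNC0638 median from -0.05 to 0.14. The large-minus-small difference of medians in that line ranged from -0.0278 to 0.0790 for GSK126, from -0.0619 to 0.0401 for UNC0638 and from -0.00605 to 0.110 for the combination. MRPS25 in MM.1S turned to 0.0334 without combination replicate 1. The counts in this paragraph are also of members only, without the shares of all probes called.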
